A study of Mus musculus with 4 samples.

Results

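The expression of 35 genes that control Wnt proteins outside the cell was examined in mouse myocytes: the 19 Wnt ligands, 2 factors of their secretion and 14 secreted antagonists, of 24011 genes with a value. The genes were chosen by symbol, and all 35 had a row in the deposited table. Primary myoblasts had been prepared from limb muscles of adult wild-type and Rspo1-null mice (spelled Rpos1-null in the labels) on a C57bl6N/sv129 background. Rspo1-null animals carry a loss-of-function allele of Rspo1 in all tissues, and no other allele or agent separates the groups. According to the labels, the cells were kept for 5 passages in 20% fetal bovine serum with 2 ng/ml bFGF and harvested after 24 h in 2% horse serum. RNA of 2 independent cultures of each genotype was measured on Affymetrix Mouse Gene 2.1 ST arrays, 4 in all, named here by their labels as wild-type 1 and 2 and Rspo1-null 1 and 2. Whether a culture came from 1 mouse or from several is not given, and the study's controls in other experiments included heterozygous animals.

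Wnt ligands are lipid-modified in the endoplasmic reticulum by the acyltransferase Porcn and carried to the cell surface by the transporter Wls. Outside the cell they meet antagonists of different kinds. Sfrp proteins and Wif1 bind the ligands themselves, and Notum removes the lipid. Dkk1, Sost and Sostdc1 act on the co-receptors Lrp5 and Lrp6. R-spondins such as Rspo1 raise the number of Wnt receptors at the surface, so that the ligands and antagonists that a cell makes set the signal on which an R-spondin can act. In muscle, ligands such as Wnt3a drive β-catenin signaling in differentiating progenitors, and Wnt7a acts through Fzd7 on satellite cells and fiber growth.

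The arrays were first compared with their labels. Rspo1 itself had log2 levels of 5.71 in wild-type 1, 5.84 in wild-type 2, 5.29 in Rspo1-null 1 and 5.33 in Rspo1-null 2, all above the background level defined below, and whether its probes lie in the deleted part is not given. Its difference of -0.46 (unadjusted p = 0.0286, adjusted p = 0.999 from limma) missed the unadjusted threshold with an intensity trend (0.0569) and without any 1 array other than wild-type 1. Xist, a transcript of the inactive X chromosome, was at 10.39 in wild-type 2 and 10.38 in Rspo1-null 1 and at 4.35 and 4.07 in the other pair, which instead carried the Y-linked transcript Eif2s3y at 8.19 and 8.51. Each genotype thus held 1 array of either kind, so that the donors under each label differed in sex. The Rspo1 values were parted by the labels and not by these pairs. Whether any labels were exchanged was not tested. Pearson's r across the 24011 genes, given as a description, was 0.988 between the arrays with Xist and 0.981 between the arrays with Y-linked transcripts, against 0.975 between both wild-type and 0.979 between both Rspo1-null arrays. All 10 muscle markers, among them Myod1, Myog, Des and Pax7, were above background in every array. The endothelial markers (5 of 5), adipocyte markers (3 of 3) and measured Schwann cell markers (2 of 2) were below it in every array. Of 7 measured fibroblast markers, 2 (Col3a1 and Thy1) were above background, while Pdgfra, Dcn and Lum were below it. Of 5 leukocyte markers only Cd68 was above background, and Adgre1, below it, passed an unadjusted p of 0.05 (0.0321 from limma); of 4 markers of pericytes and smooth muscle, Rgs5, Cspg4 and Abcc9 were above background in at least 1 array and Myh11 in none.

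Most ligands and antagonists gave no signal above background in these cells. Background was set at a log2 value of 4.76, below which 95% of the values of 1365 receptor genes for odorants and pheromones (olfactory and vomeronasal) fell over the 4 arrays. Of the 35 genes, 7 exceeded this level in all 4 arrays (Wnt4, Wnt5b, Wnt9a, Wnt10a, Porcn, Wls and Dkk3), 11 did so in at least 1 array, and 24 in none. In comparison, 52.9% of all genes exceeded it in at least 1 array and 43.9% in all 4. By role, 7 of 19 ligands, both secretion factors and 2 of 14 antagonists were above background in at least 1 array. The count rests on the level chosen: at the 99th percentile of the receptor genes, 4 genes remained (Wnt9a, Porcn, Wls and Sfrp2), and at the 90th percentile 22 genes were above it.

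**Figure D1:**
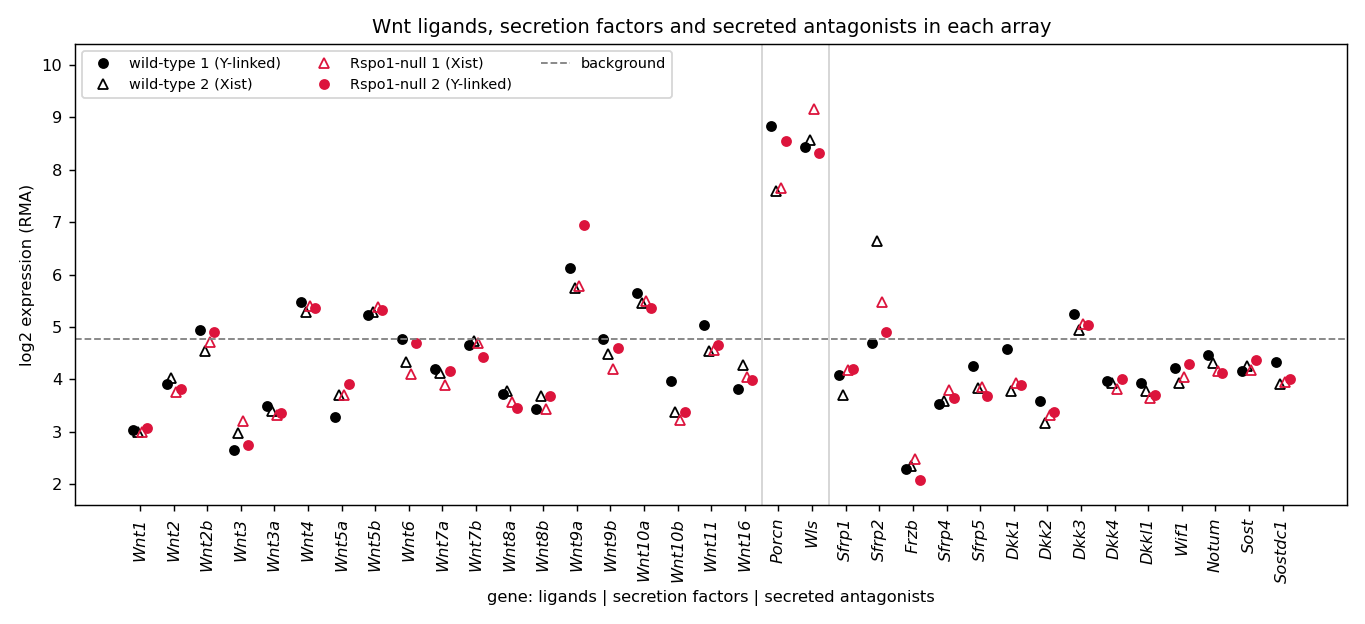
Log2 expression (RMA, y axis) of the 35 genes (x axis, ordered as ligands, secretion factors and antagonists) in each of the 4 arrays. Black symbols are arrays labelled wild-type and red symbols arrays labelled Rspo1-null; open triangles mark arrays with Xist, filled circles arrays with Y-linked transcripts. The dashed line is the background level of 4.76, and 24 genes lie below it in all 4 arrays.

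The regulatory sequence upstream is shown for Wnt9a, Wls and Sfrp2, which were above background in at least 3 arrays and part the arrays into the same pairs as the sex-linked transcripts do, and for Wnt11, above background in 1 array and parted likewise, whose first window holds a TCF/LEF motif. Wnt2b and Wnt6, also parted by the pairs and above background in 2 arrays and 1 array, had windows with neither motif searched. Porcn, above background in 4 arrays and parted by the pairs too, is not shown because it had no window. Windows of 300 bases, from 250 before to 50 after a transcription start, were taken from RefSeq (build GRCm38.p6), in which 24 of the 35 genes matched with 27 windows. In the lines that follow, written 5′ to 3′ on the plus strand, capitals mark a match to ATCAAAG, the motif of TCF/LEF factors, or to CAGCTG, an E-box of the type bound by MyoD, searched on both strands.
Wnt9a, chr11:59306680-59306979: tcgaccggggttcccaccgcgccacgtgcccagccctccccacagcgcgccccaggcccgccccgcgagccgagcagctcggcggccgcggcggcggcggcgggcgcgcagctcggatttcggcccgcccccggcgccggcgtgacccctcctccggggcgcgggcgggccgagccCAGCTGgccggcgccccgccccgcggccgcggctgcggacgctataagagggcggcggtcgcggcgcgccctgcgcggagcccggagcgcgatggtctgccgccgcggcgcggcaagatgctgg
Wls, chr3:159839400-159839699: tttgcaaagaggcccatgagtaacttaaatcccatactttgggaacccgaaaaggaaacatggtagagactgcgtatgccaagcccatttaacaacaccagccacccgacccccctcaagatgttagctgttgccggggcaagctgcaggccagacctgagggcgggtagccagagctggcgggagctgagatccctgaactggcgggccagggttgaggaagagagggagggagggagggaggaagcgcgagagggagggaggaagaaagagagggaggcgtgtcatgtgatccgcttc
Sfrp2, chr3:83766071-83766370: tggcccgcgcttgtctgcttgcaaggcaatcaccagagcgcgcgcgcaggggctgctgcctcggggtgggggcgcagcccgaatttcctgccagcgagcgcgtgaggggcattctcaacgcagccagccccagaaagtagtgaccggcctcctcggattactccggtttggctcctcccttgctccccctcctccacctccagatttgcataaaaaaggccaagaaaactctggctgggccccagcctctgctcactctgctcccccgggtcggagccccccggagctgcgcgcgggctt
Wnt11, chr7:98834862-98835161: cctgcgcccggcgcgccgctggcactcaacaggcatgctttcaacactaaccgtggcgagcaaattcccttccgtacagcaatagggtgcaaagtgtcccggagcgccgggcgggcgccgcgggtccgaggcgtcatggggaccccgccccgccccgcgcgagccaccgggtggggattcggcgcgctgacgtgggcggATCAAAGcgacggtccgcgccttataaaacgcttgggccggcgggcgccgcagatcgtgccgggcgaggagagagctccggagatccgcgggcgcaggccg
Wnt9a held 1 match to CAGCTG and none to ATCAAAG, Wnt11 held 1 match to ATCAAAG and none to CAGCTG, and neither motif occurred in the windows of Wls and Sfrp2. Over all 27 windows, 2 held ATCAAAG (1 each of Wnt5b and Wnt11) and 2 held CAGCTG (Wnt9a and Frzb), where 3.73% and 16.3% of all 32851 windows do. A match of letters shows no binding, and its lack shows none missing. The number of CpG dinucleotides varied: the Wnt9a window held 58, that of Wnt11 45, that of Sfrp2 22 and that of Wls 11, and the median was 23 over the 27 windows against 7 over all windows. At least 50% G and C together with a ratio of observed to expected CpG of at least 0.6 was found in 18 of the 27 windows, 66.7%, against 33.5% of all windows, and the Wls window was not among the 18.

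Wnt9a, a ligand known for its part in joint formation, had log2 levels of 6.13 in wild-type 1, 5.74 in wild-type 2, 5.77 in Rspo1-null 1 and 6.94 in Rspo1-null 2. The labels overlapped, and the array labelled Rspo1-null 2 stood above the other 3. The log2 difference, taken throughout as Rspo1-null minus wild-type, came to 0.42 (standard error 0.43, 95% interval -0.71 to 1.54, adjusted p = 0.999 from limma). Leaving out the array labelled Rspo1-null 2 gave -0.16, and leaving out Rspo1-null 1 gave 1.00, each with a lone Rspo1-null array. Between the arrays with Y-linked transcripts Wnt9a was higher by 0.80 in the one labelled Rspo1-null, and between the arrays with Xist by 0.03.

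Wnt4, which works together with Rspo1 in the female gonad, was among the steadiest of the ligands above background. It was at 5.47 and 5.28 in the wild-type and at 5.39 and 5.37 in the Rspo1-null arrays, with a difference of 0.01 (standard error 0.15, 95% interval -0.40 to 0.41). Wnt5b, a ligand of mostly non-canonical signaling, had 5.23 and 5.29 in the wild-type and 5.37 and 5.33 in the Rspo1-null arrays. It was the only 1 of the 11 genes above background whose labels did not overlap, where 28.2% of the genes above background in at least 1 array do not, and its difference was 0.09 (standard error 0.14, 95% interval -0.28 to 0.47). This was larger than the SD of the wild-type (0.040) and of the Rspo1-null arrays (0.034), and smaller than the standard error of limma, which draws on the spread of all genes. Wnt10a, a ligand of teeth and hair, had 5.66 and 5.45 in the wild-type and 5.50 and 5.36 in the Rspo1-null arrays. Its difference was -0.13 (standard error 0.16, 95% interval -0.55 to 0.30). The intervals of these 3 ligands reach no further than -0.55 and 0.47, and smaller changes within them were not detectable with 4 arrays.

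Other ligands crossed the background level in some arrays. Wnt2b was at 4.94 and 4.55 in the wild-type and at 4.72 and 4.90 in the Rspo1-null arrays, so that 1 array of each label, the one with Y-linked transcripts, was above background. Wnt11, known for its part in cell movements of the embryo, was above background in the array labelled wild-type 1, with 5.04, and at 4.54 in wild-type 2, 4.57 in Rspo1-null 1 and 4.65 in Rspo1-null 2. Wnt6, which acts in somite formation, had 4.77 in the array labelled wild-type 1, just above the level, and 4.33 in wild-type 2, 4.11 in Rspo1-null 1 and 4.69 in Rspo1-null 2. With the 95th percentile taken in each array on its own, which lay at 4.91 in the array labelled wild-type 1 and at 4.59 in the array labelled Rspo1-null 2, 13 genes were above background in at least 1 array, with Wnt7b and Wnt9b in addition. For Wnt6 and Wnt11 both Rspo1-null arrays were below the pooled background of 4.76, so no fold change is given. This depends on the level: by its own percentile the array labelled Rspo1-null 2 was above background for both. Wnt6 in the array labelled wild-type 1 was then below it.

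The remaining 12 ligands were below background in all 4 arrays. Wnt7a, a ligand of Fzd7 in muscle, had 4.21 and 4.12 in the wild-type and 3.89 and 4.16 in the Rspo1-null arrays. Wnt3a, its canonical counterpart, had 3.50 and 3.40 in the wild-type and 3.33 and 3.36 in the Rspo1-null arrays. Wnt1, the founding member of the family, lay between 2.99 and 3.07 over the 4 arrays. Transcripts of these 3 ligands thus stayed below the background level of 4.76, which does not show that they are absent. The result depends on the level chosen. Wnt7a exceeded the 90th percentile of the receptor genes, 4.08, in every array except Rspo1-null 1. Wnt3a exceeded their 75th percentile, 3.26, in all 4 arrays, and Wnt1 stayed below that percentile in all 4. Wnt7b and Wnt9b came nearest to the level, with maxima of 4.73 and, just under it, 4.76. Wnt5a, a ligand of non-canonical signaling, was at 3.27 and 3.71 in the wild-type and at 3.69 and 3.92 in the Rspo1-null arrays. Wnt2, Wnt3, Wnt8a, Wnt8b, Wnt10b and Wnt16 completed the group, which together with the antagonists below background in all 4 arrays spanned 2.07 to 4.76.

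In the RefSeq annotation 4 pairs of ligand genes are direct neighbors, with 0 protein-coding genes between them: Wnt6 and Wnt10a on chromosome 1, Wnt3a and Wnt9a as well as Wnt9b and Wnt3 on chromosome 11, and Wnt10b and Wnt1 on chromosome 15. In 2 of the pairs the neighbors differed. Wnt10a was above background in 4 arrays and its neighbor Wnt6 in 1, and Wnt9a in 4 arrays and its neighbor Wnt3a in none. Both other pairs were below background throughout. The annotated spans of Wnt9b and Wnt3, which lie on opposite strands, overlap, and the place of their probes was not examined.

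Both secretion factors gave a clear signal in every array. Porcn, which is encoded on the X chromosome, had log2 levels of 8.84 in wild-type 1, 7.59 in wild-type 2, 7.65 in Rspo1-null 1 and 8.55 in Rspo1-null 2. The labels overlapped fully: both arrays with Xist were low and both arrays with Y-linked transcripts high. The wild-type mean was 8.22 ± 0.88 (SD, n = 2) and the Rspo1-null mean 8.10 ± 0.64 (SD, n = 2), with a difference of -0.12 (standard error 0.52, 95% interval -1.50 to 1.26, adjusted p = 1.00 from limma). Compared within pairs, Porcn differed by 0.05 between the arrays with Xist and by -0.29 between those with Y-linked transcripts, Rspo1-null minus wild-type. Without the array labelled wild-type 1 the difference was 0.50, whereas leaving out the array labelled wild-type 2 gave -0.74.

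Wls was at 8.43 and 8.57 in the wild-type and at 9.16 and 8.33 in the Rspo1-null arrays. The array labelled Rspo1-null 1 stood above the other 3, and both arrays with Xist were above both others. Its wild-type mean was 8.50 ± 0.10 and its Rspo1-null mean 8.74 ± 0.59 (SD, n = 2 each), a difference of 0.25 (standard error 0.31, 95% interval -0.57 to 1.06, adjusted p = 0.999 from limma). It was 0.66 without the array labelled Rspo1-null 2 and -0.17 without the array labelled Rspo1-null 1. Within the arrays with Xist it was 0.59 and within the others -0.10. Genes that recycle Wls or carry Wnt proteins through the cell, such as the retromer subunit Vps35 and the sorting nexin Snx3, were above background in every array (8 of 8 measured). Of these 8, none reached an unadjusted p of 0.05 in limma, where 3.17% of all genes did, and their median difference was 0.06.

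Among the antagonists, Sfrp2 and Dkk3 were the only genes above background. Sfrp2, a soluble protein with the Wnt-binding domain of Frizzled receptors, had log2 levels of 4.70 in wild-type 1, 6.64 in wild-type 2, 5.48 in Rspo1-null 1 and 4.90 in Rspo1-null 2. Both arrays with Xist were above both others, and the array labelled wild-type 2 stood highest. Its range over the arrays, 1.93, was the widest of the 35 genes. The difference between labels was -0.48 (standard error 0.68, 95% interval -2.26 to 1.30, adjusted p = 0.999 from limma), a value that lies outside the naming rule and was given after its values were seen. Without the array labelled wild-type 1 it was -1.44 and without the array labelled wild-type 2 it was 0.49. Within the arrays with Xist the difference was -1.15, and within the others 0.19. Dkk3, a divergent member of the Dickkopf family, was at 5.25 and 4.93 in the wild-type and at 5.06 and 5.04 in the Rspo1-null arrays, with a difference of -0.04 (standard error 0.17, 95% interval -0.50 to 0.42) that turned positive when the arrays were centred.

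The other 12 antagonists were below background in all 4 arrays: Sfrp1, Frzb, Sfrp4, Sfrp5, Dkk1, Dkk2, Dkk4, Dkkl1, Wif1, Notum, Sost and Sostdc1. Dkk1, a secreted inhibitor of Lrp6 and itself a target of β-catenin, reached 4.58 in the array labelled wild-type 1, with 3.77 in wild-type 2, 3.94 in Rspo1-null 1 and 3.90 in Rspo1-null 2. Notum, likewise a target of the pathway, had 4.47 and 4.31 in the wild-type and 4.17 and 4.12 in the Rspo1-null arrays. Frzb, known from cartilage, was between 2.07 and 2.49. In bulk arrays of this kind, fewer cells that make a transcript and less of it per cell cannot be told apart.

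**Figure D2:**
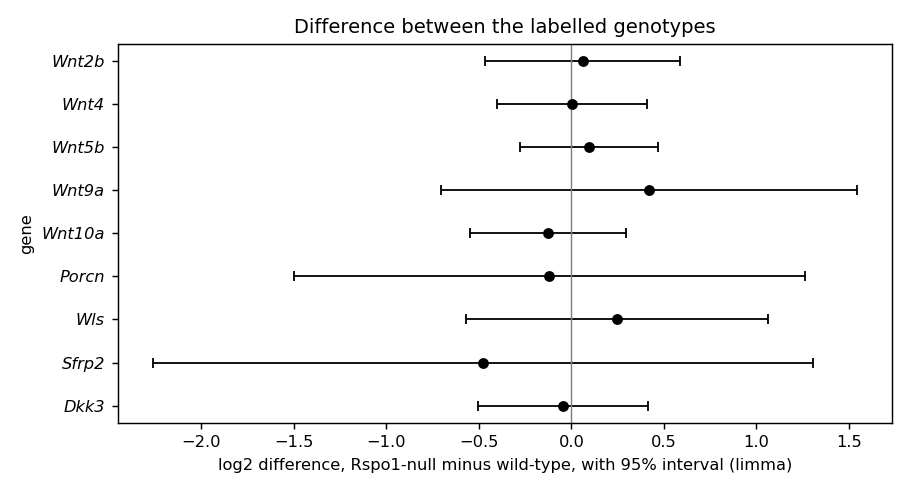
Log2 difference, Rspo1-null minus wild-type (x axis), with its 95% interval from limma, for the 9 genes (y axis) above background in at least 1 array of each label. Every interval spans 0, from the narrow ones of Wnt5b and Wnt4 to those of Porcn and Sfrp2, which reach beyond 1 on both sides.

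Between the labelled genotypes, none of the 35 genes passed the test. In limma on the log2 values of all 24011 genes, 0 of the 35 reached an adjusted p of 0.05 and 0 an unadjusted p of 0.05, and the methods' comparison with each gene's own variance also gave 0 at an unadjusted p, with 1139 of all genes past it. Over all genes 0 passed the adjusted threshold and 760, 3.17%, the unadjusted one, 288 (1.2%) higher and 472 (1.97%) lower in Rspo1-null, and the unadjusted share was 3.58% among genes above background in at least 1 array; after centring the arrays on the same median 435 were higher and 317 lower, whereas cyclic loess gave 346 and 337. The Rspo1-null mean was higher for 12 of the 35 genes and lower for 23, against 10767 and 13241 of all genes. The median difference of the 11 genes above background was -0.04, against 0.03 over all genes above background in at least 1 array. The sign of the former depended on the processing. The arrays of the 2 labels did not overlap in 8 of the 35 genes, 3 higher (Wnt5b, Sfrp1 and Sfrp4) and 5 lower (Wnt2, Wnt3a, Wnt8a, Dkkl1 and Notum), where 31.2% of all genes did not, and 7 of these 8 were below background in every array. With 2 arrays against 2, the exact permutation test of a single gene cannot give a two-sided p below 0.333.

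The arrays were also compared by the pairs with like sex-linked transcripts. Of the 11 genes above background, 7 were parted by these pairs: Wnt2b, Wnt6, Wnt9a, Wnt11 and Porcn were lower in both arrays with Xist, and Wls and Sfrp2 were higher. The same parting was found in 48.5% of all genes above background in at least 1 array, so the count of 7 among 11 is given as a description, with no test. Over all 35 genes the pairs parted 19, against 42% of all 24011 genes. Between the pairs, Xist minus Y-linked, Porcn differed by -1.07, Wnt9a by -0.78, Wls by 0.49 and Sfrp2 by 1.26. Labels within a pair differed by 0.80 for Wnt9a (Y-linked), and by 0.59 for Wls and -1.15 for Sfrp2 (Xist). For Porcn the larger difference within a pair was -0.29 (Y-linked). The median range over the 4 arrays was 0.50 for the 11 genes and 0.52 for all genes above background. Muscle genes moved with the pairs too. Myog, the transcription factor myogenin, was at 11.07 in wild-type 1 and 11.70 in Rspo1-null 2 and at 9.56 and 9.96 in those with Xist, and Pax7, a factor of satellite cells and myoblasts, was at 6.38 and 7.10 in the former and at 7.85 and 8.17 in the latter. Of the 7 measured fibroblast markers, Col3a1 was parted by the pairs in the direction of Sfrp2, at 7.61 and 7.82 in the arrays with Xist against 7.16 and 7.09 in the others, and Thy1 was at 5.12 and 6.27 with Xist against 5.67 and 5.20. The other 5 were below background, with Pdgfra, Dcn and Lum at 3.27 or less, and the mean log2 level of the list was 3.96 and 4.26 with Xist against 4.11 and 3.96. The part of muscle differentiation, of donor sex or of other cells in the values of the 7 genes was not tested.

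**Figure D3:**
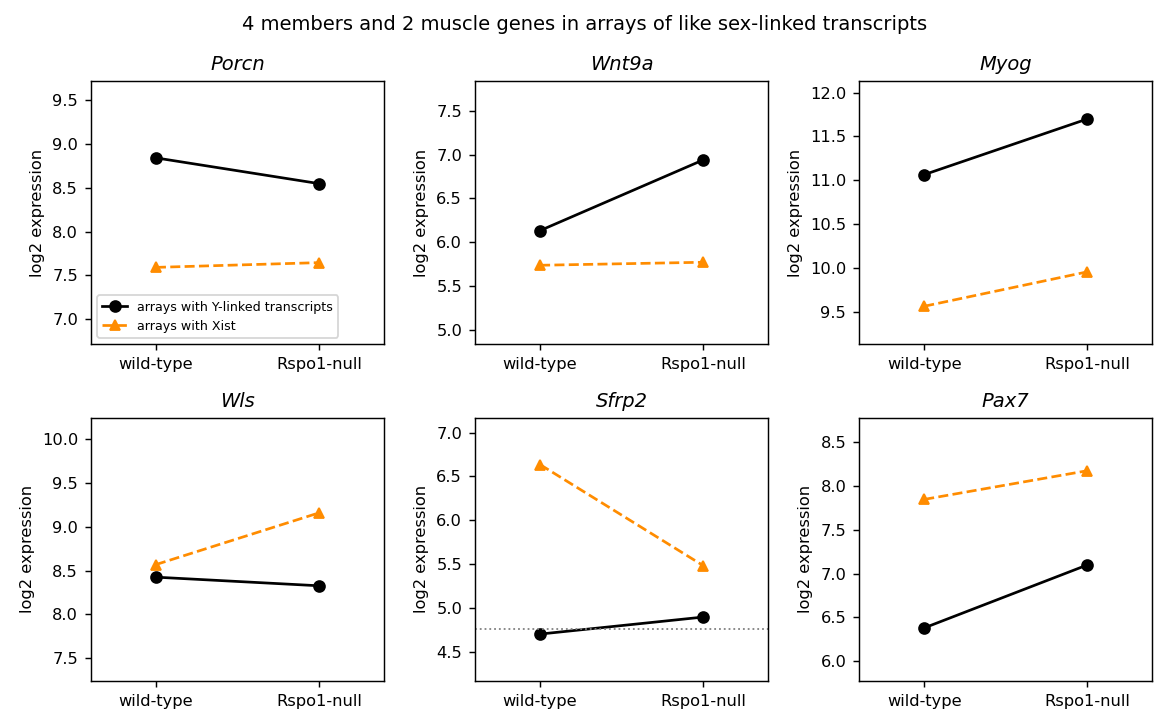
Log2 expression (y axis) of Porcn, Wnt9a, Wls and Sfrp2 and of the muscle genes Myog and Pax7, by labelled genotype (x axis). Black lines join the 2 arrays with Y-linked transcripts and orange dashed lines the 2 arrays with Xist, each point is 1 array, and the dotted line in the panel of Sfrp2 is the background level. Porcn and Myog are lower and Sfrp2 and Pax7 higher in both arrays with Xist.

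Other genes of the pathway were described by lists. Of 20 receptors and co-receptors, 18 were above background in at least 1 array, against 52.9% of all genes. The mean was higher for 6 and lower for 14 in Rspo1-null, against 10767 and 13241 of all genes. An unadjusted p of 0.05 in limma was passed by 3.17% of all genes and by 1 of the 20. This was Fzd6, a Frizzled receptor, with 6.02 and 5.69 in the wild-type and 5.32 and 5.41 in the Rspo1-null arrays, a difference of -0.49 (standard error 0.18, adjusted p = 0.999 and unadjusted p = 0.0448 from limma). Its call was lost with the arrays centred (unadjusted p = 0.0575 from limma), after cyclic loess (0.0559), with an intensity trend (0.0685), among genes above background in at least 2 arrays (0.0643), and without any 1 array other than that labelled wild-type 2. Fzd7, the receptor of Wnt7a, had 6.51 and 5.80 in the wild-type and 5.38 and 5.67 in the Rspo1-null arrays, with a difference of -0.63 (standard error 0.29). Lrp6, the co-receptor on which Dkk1 acts, ranged from 7.92 to 8.01 with a difference of -0.01 (standard error 0.14), and Kremen1, which removes Lrp6 together with Dkk1, was at 8.87 and 8.43 in the wild-type and at 8.28 and 8.86 in the Rspo1-null arrays. Receptors and co-receptors were thus above background where most of the ligands and antagonists were not.

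In the R-spondin group, 4 of 9 genes were above background (Rspo1, Lgr4, Lgr6 and Znrf3), and Rspo1 was the 1 gene past an unadjusted p of 0.05 (standard error of its difference 0.15). The share past that p over all genes, 3.17% in limma, stands beside the count of this list and of those that follow. Of 11 further extracellular modulators, 6 were above background. Gpc4, a glypican of the cell surface, was the 1 gene past an unadjusted p of 0.05 (0.0352, adjusted p = 0.999 from limma), with 5.65 and 5.70 in the wild-type and 6.77 and 6.11 in the Rspo1-null arrays and a difference of 0.76 (standard error 0.26). With 1 array left out, its call held only without the array labelled Rspo1-null 2, and the differences ranged from 0.43 to 1.09. Of 22 measured genes on a list of targets of β-catenin, which included Dkk1, Notum and Wif1, none reached an unadjusted p of 0.05 in limma. Porcn was also on this list, although the study does not name it as a target. The median difference was -0.04 over all 22 genes and 0.03 over the 11 that were above background in at least 1 array. Axin2, a feedback inhibitor and common readout of the pathway, was below background, with 4.62 and 4.24 in the wild-type and 3.92 and 4.29 in the Rspo1-null arrays. Lef1, a nuclear partner of β-catenin, was at 7.34 and 8.30 in the wild-type and at 7.41 and 7.65 in the Rspo1-null arrays.

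**Figure D4:**
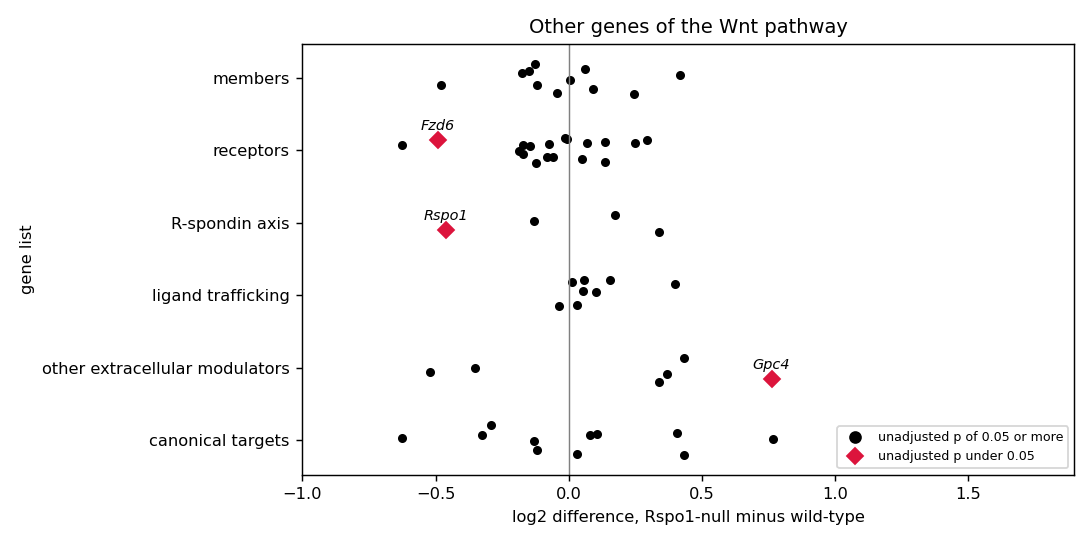
Log2 difference, Rspo1-null minus wild-type (x axis), of genes above background in at least 1 array, by gene list (y axis, with the 35 genes of Wnt ligands, secretion factors and antagonists as members). Each point is 1 gene, its height within a list is arbitrary, and red diamonds mark the 3 genes past an unadjusted p of 0.05, Fzd6, Rspo1 and Gpc4, none of which is a ligand, secretion factor or antagonist of the main list. Of all genes, 3.17% passed that p in limma.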

How the data were processed

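Expression in 4 arrays, 2 per genotype label, was taken from the deposited table. Per the labels the authors deposited log2 values, 1 for each gene and array, normalized by RMA with Partek also named in the submitters' processing notes and R in the supplementary methods; versions are not given in the sources used here. RMA removes background and equalizes the arrays, which compresses differences of low genes. Array medians lay between 4.62 and 4.70. Of 24973 rows, 24015 had 1 gene symbol in the platform table, 0 had several and 958 were not named; of the rows of 4 symbols listed repeatedly only the one of highest mean entered. Genotypes were compared with limma 3.58.1 (R 4.3.3), unblocked, p-values being adjusted over 24011 genes by Benjamini and Hochberg's method; the fit was tested on simulated data. Alternatives were the replicate number or crossed pairs as a block, centring, cyclic loess, an intensity trend, each gene's own variance as in the study's methods, a filter on low values, other background percentiles, the mean of repeated rows, and leaving out each array. No set test was run. The number of arrays limits the precision, and since the source animals of the cultures are not given, p-values measure the spread between these arrays only. Members above background are named with all values, the others by range; differences are given for members above background in all 4 arrays, past an unadjusted p of 0.05 or differing by over 0.5, and of the other lists genes past that p are named, with Rspo1, Fzd7, Lrp6, Kremen1, Axin2 and Lef1. The rule also includes differences of Wnt1, Wnt3a and Wnt7a, left out since both labels were below background, and of Wnt6, which like that of Wnt11 is given only as its range with 1 array left out. The differences of Sfrp2 and Wnt2b and the values of Wnt5a, Wnt7b, Wnt9b, Dkk1, Notum and Frzb were given after their values were seen. The members and lists were chosen with earlier results of these data known. Protein sequences were not analysed here.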

Additional observations from a re-analysis of the deposited data

How the results depend on the processing

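With the replicate number as a block, 400 genes passed an unadjusted p of 0.05 in limma in place of 760, with 0 of the 35. The deviations of same-numbered arrays correlated at -0.358, and those of crossed arrays at 0.358. With 2 arrays per label these are mirror images, and they cannot show whether same-numbered arrays shared a preparation. Under this block Rspo1 (unadjusted p = 0.0664, adjusted p = 1.00 from limma), Fzd6 (unadjusted 0.0878) and Gpc4 (unadjusted 0.0533) missed the unadjusted threshold. A block of crossed pairs, added once the data had been seen, gave a different count, 1284 genes, 605 higher and 679 lower, with 0 of the 35. Among genes above background in at least 2 arrays, 255 of 11909 passed. With 1 array left out, where a lone array is assumed to vary like the others, 540 to 1711 genes passed, and 1 to 2 of the 35: Sfrp2 without wild-type 1, Wnt10b and Dkk1, both below background, without wild-type 2, Wnt9a without Rspo1-null 1 and Wls without Rspo1-null 2. No gene passed an adjusted p of 0.05 under any alternative.

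With 1 array left out the differences ranged from -0.14 to 0.26 for Wnt2b, -0.092 to 0.10 for Wnt4, -0.44 to 0.14 for Wnt6, -0.16 to 1.00 for Wnt9a, -0.42 to 0.076 for Wnt11, -0.74 to 0.50 for Porcn, -0.17 to 0.66 for Wls, -1.44 to 0.49 for Sfrp2 and -0.20 to 0.12 for Dkk3; those of Wnt5b (0.07 to 0.12) and Wnt10a (-0.23 to -0.02) kept their sign. Those of Wnt6 and Wnt11 rest on Rspo1-null values below background. Dkk3 also turned to 0.0086 with the arrays centred on the same median and to 0.0063 after cyclic loess. The number of the 35 genes above background was 4, 22 and 32 with the 99th, 90th and 75th percentile of the receptor genes, against 11 as reported, and 13 with each array's own 95th percentile, also added after the data were seen. The median difference of the genes above background moved by less than the spread between arrays (0.15) under every alternative in which it was computed. Its sign did not hold, however. From -0.04 it turned to 0.0086 with centring, 0.0063 after cyclic loess, 0.063 at the 99th percentile and 0.10 without wild-type 1.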
